A study of Mus musculus with 7 samples.

Results

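Plau, Plaur, Plat, Serpine2, Serpinb2 and Serpinf1 are 6 of the 55228 gene rows of a read count table made from granulosa cells, the follicle cells around the oocyte, taken as primary cells from ovaries of C57BL/6J mice. The table held 4 libraries of wild-type cells (WT) and 3 of cells whose mice carry the label Fhl2 knockout (KO), with no treatment named for either. The set was chosen by the rise of Plau in the KO libraries and by the role of its products at ovulation. Differences between KO and WT within the set were therefore part of the choice, and they are given as a description: no p-value is given for a member, and nothing is read from how many passed. No Cre driver, age or pooling of animals is named in the labels, and whether each library stands for its own animal is not stated, so the spread between libraries may be technical. Of the 6 genes, 5 passed the filter on low counts that 15798 genes passed in all, and Serpinb2 did not.

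Plasminogen activators are serine proteases that cut the inactive zymogen plasminogen into plasmin, a protease that dissolves fibrin, cleaves matrix glycoproteins and activates procollagenases. Plau encodes the urokinase-type activator, which works at the cell surface when held by its receptor, the product of Plaur, and Plat encodes the tissue-type activator, which works best on fibrin. Both are held in check by serpins, inhibitors that trap a protease in a covalent complex. In the ovary the system is known for the weakening of the follicle wall at ovulation, and in mouse granulosa cells urokinase is the activator that gonadotropins induce. Of the serpins in the set, Serpine2 (protease nexin-1) and Serpinb2 (plasminogen activator inhibitor type 2) inhibit activators, whereas the product of Serpinf1, pigment epithelium-derived factor, has the serpin fold but is not known to inhibit proteases and is known for blocking vessel growth.

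Both activators carry the active-site serine of their family, and the short stretches of sequence around it can be set side by side. The coding bases around that serine are given here from the GENCODE M21 transcripts, 5′ to 3′, with the serine codon in capitals.
Plau: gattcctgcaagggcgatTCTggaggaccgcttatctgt
Plat: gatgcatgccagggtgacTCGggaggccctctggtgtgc
The stretches matched at 27 of 39 bases (69.2%). The serine was codon 378 of 433 in Plau and codon 510 of 559 in Plat. No run of 50 bases of the longest Plau, Plaur, Plat, Serpinb2 or Serpinf1 transcript occurred in a transcript of another gene, and 25 of 3344 such runs (0.7%) of Serpine2 did, so few reads could be split between these genes and near-identical copies.

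Libraries held 38855596 to 50514556 counted reads. Fhl2 itself, the targeted gene, stood at 101.0 to 114.2 CPM (counts scaled to a common library size, with TMM factors) in WT and at 47.9 to 66.8 CPM in KO, so it fell (log2 fold change -0.88, SE 0.107, edgeR adjusted p = 3.29e-05) but was still read in every KO library; corrected for length and GC content, its log2 fold change was -1.10. The labelled cell type was checked against granulosa cell markers. Inha (the inhibin alpha subunit) reached 82100 counts in a library, whereas Cyp19a1, the aromatase, reached at most 17 and was not tested. Among the other markers, WT means ran from 1.87 CPM for Amh and 5.40 for Fshr to 228.3 for Fst, with Foxl2 at 70.1. Across all genes, 4588 of 15798 (29.0%) passed the edgeR adjusted p threshold of 0.05, 13.5% higher and 15.6% lower in KO, and for 34.2% of genes all KO libraries lay on one side of all WT libraries. Fold changes also followed transcript length: with genes in 10 bins by length, the median log2 fold change ran from 0.28 in the shortest to -0.38 in the longest. Values corrected for length and GC content, by which 22.6% of genes passed, are therefore given beside the main ones (as corrected).

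Plau, on chromosome 14 from 20836660 to 20843385 (mm10, plus strand), was the member with the largest difference. WT libraries 1 to 4 held 13650, 18065, 13707 and 13966 Plau reads, or 352.4, 359.9, 293.2 and 319.8 CPM. KO libraries 1 to 3 held 26699, 37532 and 38601 reads, or 680.6, 799.9 and 847.7 CPM. The groups were far apart: the lowest KO library stood above the highest WT library by more than the whole range of the WT group. Group means were 331.3 ± 30.8 CPM for WT (SD, n = 4) and 776.1 ± 86.0 CPM for KO (SD, n = 3), a 2.34-fold difference (log2 fold change 1.23, SE 0.101). Corrected for length and GC content the log2 fold change was 1.15, and KO library 1 alone against WT gave 1.04. Genes in the length bin of Plau, with transcripts of 2112 to 2627 bases, had a median log2 fold change of 0.10.

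Plat, on chromosome 8 from 22757727 to 22782844, differed far less, and its KO libraries spread widely. It stood at 22.8, 22.8, 27.0 and 24.8 CPM in WT libraries 1 to 4 and at 25.3, 20.2 and 17.1 CPM in KO libraries 1 to 3. KO library 1 lay inside the WT range and KO libraries 2 and 3 below it. The log2 fold change was -0.22 (SE 0.123). It was 0.055 for KO library 1 alone and -0.36 without that library. After the correction it was -0.12. That correction used the longest Plat transcript, of 4042 bases, which is annotated as a retained intron. The coefficient of variation was 19.9% among KO libraries and 8.21% among WT libraries. KO library 3 held the highest Plau level and the lowest Plat level of the 7.

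The receptor gene Plaur, on chromosome 7 from 24462484 to 24475968, was the lowest of the tested members in CPM. Its reads numbered 190, 290, 255 and 212 across WT libraries 1 to 4 and 256, 269 and 350 across KO libraries 1 to 3. In CPM these were 4.91, 5.78, 5.45 and 4.86 in WT against 6.53, 5.73 and 7.69 in KO. KO libraries 1 and 3 lay above all WT libraries, and KO library 2 lay just inside their range. The log2 fold change was 0.34 (SE 0.146), and 0.16 after the correction. Genes of like transcript length had a median of 0.18. That length was the longest transcript, of 2009 bases. By the longest protein-coding one, of 1506 bases, the bin median would be 0.24.

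Serpine2, on chromosome 1 from 79794197 to 79861180 (minus strand), encodes protease nexin-1, an inhibitor of urokinase, tissue-type activator and thrombin. It was the most abundant member, with 1243, 1200, 1118 and 1239 CPM in WT libraries 1 to 4 and 978.1, 908.7 and 965.3 CPM in KO libraries 1 to 3. All KO libraries lay below all WT libraries, and the spread within each group was small (coefficient of variation 4.85% in WT and 3.88% in KO). The mean went from 1200 ± 58.2 CPM (SD, n = 4) to 950.7 ± 36.9 CPM (SD, n = 3), which is 79.2% of WT. The log2 fold change was -0.34 (SE 0.0870), or -0.31 after the correction, which used the longest transcript, of 3393 bases. By its longest protein-coding transcript, of 2210 bases, Serpine2 would fall in a length bin with a median of 0.10, against -0.0141 in the bin used. Its reads made up 0.109% to 0.123% of all counts in WT libraries and 0.0941% to 0.0988% in KO libraries.

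Serpinf1, on chromosome 11 from 75409769 to 75422701 (minus strand), was the member that differed most in the direction opposite to Plau. It stood at 32.7, 36.5, 33.6 and 33.8 CPM in WT libraries 1 to 4 and at 19.1, 21.7 and 24.3 CPM in KO libraries 1 to 3. The groups did not overlap. The mean went from 34.2 ± 1.63 CPM (SD, n = 4) to 21.7 ± 2.61 CPM (SD, n = 3), or 63.5% of WT (log2 fold change -0.66, SE 0.103). The difference was larger after the correction, at -0.88, since genes of like transcript length had a median of 0.18.

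Serpinb2, on chromosome 1 from 107511423 to 107535478, encodes the inhibitor of urokinase known from macrophages and placenta. No read (0 counts) was assigned to it in the 4 WT libraries and in KO libraries 1 and 2, and 2 counts in KO library 3. A count of 0 allows up to 3 counts, which is 0.0598 to 0.0775 CPM per library, so no fold change is given. Such limits cover counting error only.

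In the fit across all genes, 3 of the 5 tested members lay past the adjusted p threshold of 0.05, Plau higher and Serpine2 and Serpinf1 lower, beside 29.0% of all genes. The members were picked on this same contrast, so nothing is read from that count. The same 3 lay past it after the length and GC correction. Serpine2 was not past it when WT library 1 was left out, nor with libraries 1 to 3 of each group blocked by replicate number. For KO library 1 alone the log2 fold change of Serpine2 was -0.30. Plat lay past the threshold, lower, with limma voom weights and without KO library 1 (log2 fold change -0.36 in each). Plaur lay past it, higher, with those weights (0.42) and without KO library 2 (0.45).

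**Figure D1:**
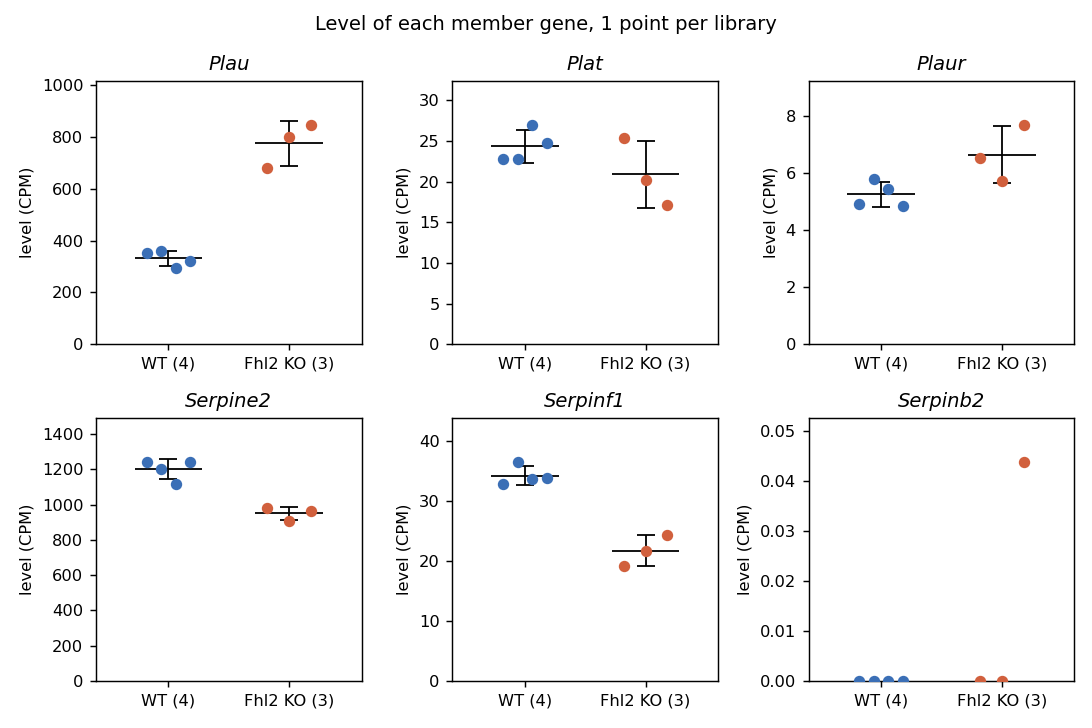
Level of each member gene in CPM (vertical axes from 0, scaled per panel) in the 4 WT libraries (blue) and the 3 KO libraries (orange), 1 point per library, with the group mean and SD as black lines except for Serpinb2. The KO points lie above all WT points for Plau and below them for Serpine2 and Serpinf1, overlap them for Plat and Plaur, and for Serpinb2 only KO library 3 is above 0, with 2 counts.

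Levels of different genes can be compared only per length, so CPM was divided by the length of the longest annotated transcript. In WT the order was Serpine2 at 353.7 ± 17.2 CPM per kb, Plau at 141.5 ± 13.2, Serpinf1 at 18.7 ± 0.890, Plat at 6.02 ± 0.494 and Plaur at 2.61 ± 0.221 (SD, n = 4). No neighbours in this order overlapped in any WT library. In KO, Plau came first at 331.4 ± 36.7 CPM per kb, ahead of Serpine2 at 280.2 ± 10.9 (SD, n = 3), though KO library 1 held nearly equal levels. Among 28216 genes with a length and any count, Plau ranked 428 to 532 in the WT libraries and 185 to 207 in the KO libraries, and Serpine2 ranked 147 to 173 and 208 to 255. The place of Serpine2 depends on the transcript used. Its exons together span 8287 bases, over which its WT level was 144.8 CPM per kb, inside the range of Plau over its own exons (123.8 to 152.0). Over its longest protein-coding transcript, of 2210 bases, the WT level was 543.0 CPM per kb and the KO level 430.2, above Plau in both groups. The longest Plat transcript, of 4042 bases, is annotated as a retained intron, and over the coding one of 2525 bases the WT level of Plat was 9.64 CPM per kb.

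Ratios within a library do not depend on how libraries are scaled, and the choice of transcript only multiplies them by a constant. The ratio of Plau to Serpine2 was 0.374 to 0.435 in the WT libraries and 1.008, 1.275 and 1.272 in KO libraries 1 to 3. In reads, the ratio of Plau to Serpine2 was thus higher in each KO library than in any WT library. Protein and protease activity were not measured here. Against the other activator, Plat, the ratio was 18.8 to 27.2 in WT and 46.4 to 85.4 in KO. Against the receptor gene Plaur it was 46.1 to 61.6 in WT and 89.5 to 119.7 in KO. All of these ratios contain Plau, on whose rise the set was chosen, and are given as a description.

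**Figure D2:**
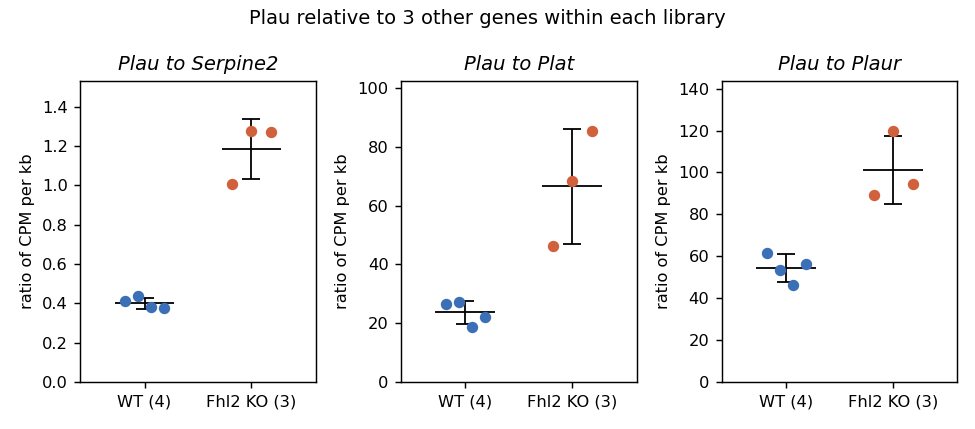
Ratio of Plau to Serpine2, Plat and Plaur within each library, in CPM per kb of the longest transcript (vertical axes from 0), with 4 WT libraries in blue, 3 KO libraries in orange, and the mean and SD as black lines. In each panel the KO libraries lie above all WT libraries, for Serpine2 at 1.008 to 1.275 against 0.374 to 0.435.

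The other genes of the plasminogen system were taken from a list of 65 genes grouped by role, all present in the table, of which 40 were tested. Of these, 8 rose, 9 fell and 23 did not pass (42.5% past the threshold, beside 29.0% of all genes), and their median log2 fold change was 0.04 against 0.00 for all genes tested. After the length and GC correction 4 rose and 8 fell (30.0%, beside 22.6%). The count was 11 without KO library 3 (3 higher, 8 lower) and 6 for KO library 1 alone (1 higher, 5 lower).

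Plasminogen itself (Plg) had 0 counts in all 7 libraries, as did vitronectin (Vtn), an adhesive plasma protein. Among the 17 tested genes of plasminogen binding and of activator uptake, 4 rose and 5 fell (52.9%, beside 29.0% of all genes); after the correction 0 were higher and 4 lower (23.5%, beside 22.6%). The integrin subunit Itgav, a subunit of the vitronectin receptor, fell from a mean of 205.8 to one of 105.8 CPM (by 0.96 on the log2 scale, with SE 0.0846 and an edgeR adjusted p = 9.58e-07; corrected -0.64), and its partner Itgb3 fell from a mean of 31.2 to 16.6 CPM (-0.91, SE 0.108, adjusted p = 2.91e-05, corrected -0.70). Mrc2, a collagen uptake receptor that associates with the urokinase receptor, fell from 10.2 to 5.30 CPM (edgeR adjusted p = 4.78e-04, corrected -0.81). Igf2r, which binds the urokinase receptor and plasminogen, fell by 0.74 on the log2 scale (edgeR adjusted p = 0.0105, corrected -0.40), and was at -0.65 without KO library 3 (adjusted p = 0.0603, range 7.42e-11 to 0.0982 over its alternatives). Vldlr, an endocytic receptor that clears activator and inhibitor complexes, fell by 0.55 (edgeR adjusted p = 0.00226), but was at -0.20 after the correction (adjusted p = 0.0577, range 2.44e-06 to 0.0683).

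None of the 4 genes of this group that rose was past the threshold once length and GC content were corrected for. Plgrkt, the transmembrane plasminogen receptor, went from 16.1 to 20.1 CPM across WT libraries to 21.8 to 25.4 across KO libraries (log2 fold change 0.43, SE 0.107, edgeR adjusted p = 0.00799). Its corrected value was 0.21 (adjusted p = 0.0920, range 8.68e-04 to 0.270 over its alternatives). S100a10 and Anxa2 form the annexin A2 complex that binds plasminogen and tissue-type activator. S100a10 stood at 341.8 to 351.4 CPM in WT and at 372.5, 474.6 and 505.5 CPM in KO libraries 1 to 3 (0.38, edgeR adjusted p = 0.0104, corrected 0.09 and 0.367, range 1.22e-05 to 0.545). Anxa2 stood at 828.4 to 883.9 CPM in WT and at 901.9 to 1195 CPM in KO (0.33, edgeR adjusted p = 0.0188, corrected 0.20 and 0.0780, range 3.81e-05 to 0.653). Pgk1, a glycolytic enzyme that also reduces plasmin, was at 0.36 (edgeR adjusted p = 0.0132, corrected 0.21 and 0.0571, range 5.12e-05 to 0.476). Without KO library 3 the adjusted p was 0.0865 for S100a10, 0.131 for Anxa2 and 0.108 for Pgk1, and without WT library 1, 3 or 4 it was 0.0525 to 0.0567 for Anxa2. Igf2r, S100a10, Anxa2 and Pgk1 were named after their values were seen.

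Among the 12 tested protease inhibitor genes, 2 rose and 2 fell (33.3%, beside 29.0% of all genes; 25.0% beside 22.6% after the correction). Tmeff1, a membrane protein with follistatin-like domains, fell from a mean of 59.4 to 42.0 CPM (-0.50 on the log2 scale, edgeR adjusted p = 0.00261, SE 0.103, corrected -0.57). Serpinb6a, an intracellular serpin, rose from 669.2 to 986.1 CPM (0.56, SE 0.105, adjusted p = 0.00148, corrected 0.41). Serpina5, the protein C inhibitor, which also inhibits urokinase, was 1.12 higher at a level of only 0.523 CPM in WT (adjusted p = 0.0377, corrected 1.01). Leaving out WT library 1, 2 or 3 or KO library 3 ended its call, as did the correction (adjusted p of 0.0507 to 0.212, range 0.00789 to 0.455). The antiplasmin Serpinf2 and the fibrinolysis inhibitor Cpb2 had at most 2 counts in any library.

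Among the 11 tested substrates, other proteases and coagulation genes, 2 rose and 2 fell (36.4%, beside 29.0% of all genes); after the correction 3 were higher and 2 lower (45.5%, beside 22.6%). Prss35, a gene of the serine protease family by sequence, rose by 0.76 on the log2 scale, from a mean of 467.7 to 791.5 CPM (SE 0.102, edgeR adjusted p = 8.56e-05, corrected 0.79). F3, which encodes tissue factor, the starter of coagulation, rose from 103.0 to 146.8 CPM (0.51, SE 0.127, adjusted p = 0.00939, corrected 0.39), but without KO library 3 its adjusted p was 0.0502 (range 1.00e-05 to 0.463). The gelatinase Mmp2 fell by 0.54 (adjusted p = 0.00160, corrected -0.64), and Mmp14, the membrane protease that activates it, fell by 0.48 (adjusted p = 0.00401, corrected -0.56). Hgf, a growth factor that urokinase can activate, and the fibrinogen genes Fga, Fgb and Fgg had at most 10 counts in any library and were not tested.

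**Figure D3:**
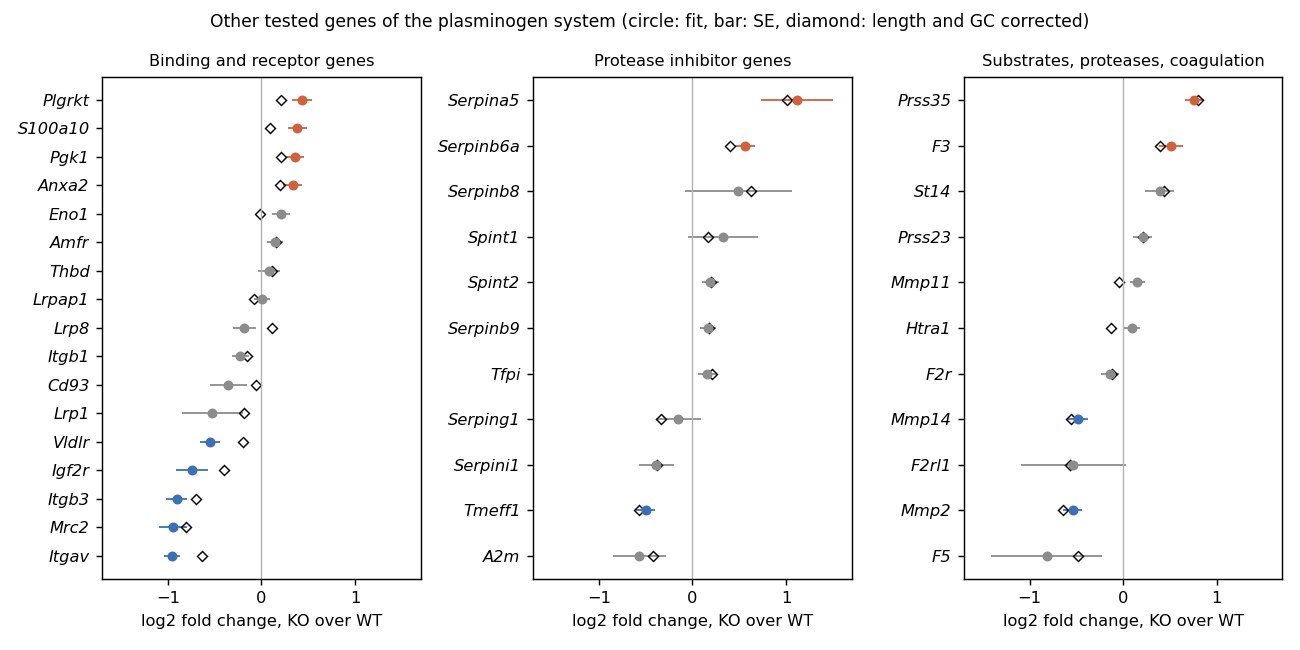
Log2 fold change, KO over WT (horizontal axes), of tested genes of the plasminogen system outside the 6 members, in 3 role groups, with 1 gene left out; circles are the values of the fit with SE as bars, orange where higher, blue where lower and grey where not past the edgeR adjusted p threshold of 0.05, and open diamonds are values corrected for length and GC content. Itgav, Mrc2 and Itgb3 lie near -0.9, and the corrected values of Plgrkt, S100a10, Pgk1 and Anxa2 lie closer to 0 than the uncorrected ones.

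Serpins outside the set were counted by symbol. Of 66 rows, 14 were tested; 4 rose, 1 fell and 9 did not pass (35.7%, beside 29.0% of all genes), and the count was 3 without WT library 1 or KO library 3. After the correction 2 were higher and 2 lower (28.6%, beside 22.6%). Those that rose were Serpinb6a, Serpina5, Serpinb9b (0.49, SE 0.0939, edgeR adjusted p = 0.00161, corrected 0.50) and Serpinb1a (0.28, SE 0.0878, adjusted p = 0.0269, range 0.00153 to 0.405). Leaving out WT library 1 or 4 or KO library 2 or 3 ended the Serpinb1a call (adjusted p of 0.0669 to 0.101), as did the correction (0.14, adjusted p = 0.133). Mouse clade A and B serpins have near-identical copies, so reads of Serpinb6a, Serpinb9b and Serpinb1a may be split between copies.

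Genes whose starts lie within 500 kb of a member were examined next. Of 88 such tested genes, 21 passed (23.9%, beside 29.0% of all genes). The pair with the largest log2 fold changes was next to Serpine2, which lies 36.6 Mb from Fhl2 on the same chromosome. Wdfy1, with a start 85.0 kb away, stood at 19.6 to 24.4 CPM in WT and 2.78 to 3.56 CPM in KO (edgeR adjusted p = 7.43e-10 for a log2 fold change of -2.84, SE 0.140, corrected -2.68), and Ap1s3 fell by 1.14 (adjusted p = 0.00610, corrected -1.25, range 8.77e-04 to 0.0614, the highest for KO library 1 alone). The other 3 tested genes near Serpine2 did not pass, among them Mrpl44 (0.24, adjusted p = 0.0873).

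The genes whose pattern across the 7 libraries was most like that of Plau were found by the root-mean-square difference of centred log2 CPM, among 11669 genes of at least 1 CPM. They were Igfbp4 (0.113), an IGF-binding protein gene, the coactivator gene Cited4 (0.122), Hsd3b1 (0.128), an enzyme of progesterone synthesis, the secreted glutathione peroxidase gene Gpx3 (0.132) and the LIM-domain gene Pdlim4 (0.135). Their log2 fold changes were 1.10 for Igfbp4, 1.30 for Cited4, 1.35 for Hsd3b1, 1.32 for Gpx3 and 1.27 for Pdlim4. Corrected, they were 1.09, 1.10, 1.23, 1.05 and 0.98 in the same order. As the genes were picked for likeness to Plau in these same libraries, fold changes near that of Plau follow from the choice. They are given as a description.

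Markers of other cells were counted beside these results, since in a bulk sample fewer cells of a type and less RNA per cell cannot be told apart. Leukocyte markers summed to 23.5 to 25.3 CPM in WT and 23.2 to 27.8 in KO, none of 7 tested passed, and S100a9 was at 0 in all libraries. Endothelial markers summed to 4.02 to 4.83 CPM in WT and 3.91 to 4.69 in KO, and none of 5 tested passed. Stroma markers summed to 363.7 to 421.4 CPM in WT and 117.6 to 163.0 in KO (4 of 6 lower), and smooth muscle and pericyte markers to 878.1 to 968.8 and 464.1 to 543.1 CPM (3 of 5 lower, Rgs5 at 0). Few genes made up most of these sums. Acta2 alone had means of 882.1 CPM in WT and 490.7 in KO. Col3a1, Col1a2 and Col1a1 had WT means of 220.7, 91.8 and 72.7 CPM. Dcn and Lum, at 0.517 and 0.310 CPM in WT, did not pass (log2 fold changes 0.42 and -2.34). Surface epithelium markers were at 109.6 to 126.4 CPM in WT and 139.6 to 182.3 in KO (5 of 7 higher). Granulosa cell markers were at 1669 to 1785 and 2153 to 2400 CPM. Of 8 tested, 2 were higher (Inha and Fshr) and 4 lower (Foxl2, Amh, Fst and Nr5a2). Inha alone had means of 1042 and 1699 CPM. Oocyte markers were at 2.35 to 5.91 and 3.24 to 6.70 CPM (1 of 4 lower). The 4 lung genes were at 0.0214 to 0.155 CPM in WT and at 9.31, 22.3 and 0.791 in KO libraries 1 to 3. Sftpc and Sftpb, at WT means of 0.0258 and 0.0511 CPM, passed the low-count filter only through the KO libraries, so no call is read for them. Sftpa1 and Scgb1a1, at up to 187 and 160 counts, were not tested. Of 4 theca markers only Ptch1 was tested, and it fell (log2 fold change -0.54, corrected -0.10). Cyp17a1 reached at most 3 counts and Lhcgr at most 16. After the length and GC correction, Ptch1, Fshr, Nr5a2 and Msln were no longer past the threshold, whereas Hsd17b1 and Tagln were lower. The part of these shifts in the levels of Plau, Serpine2 and Serpinf1 was not tested.

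**Figure D4:**
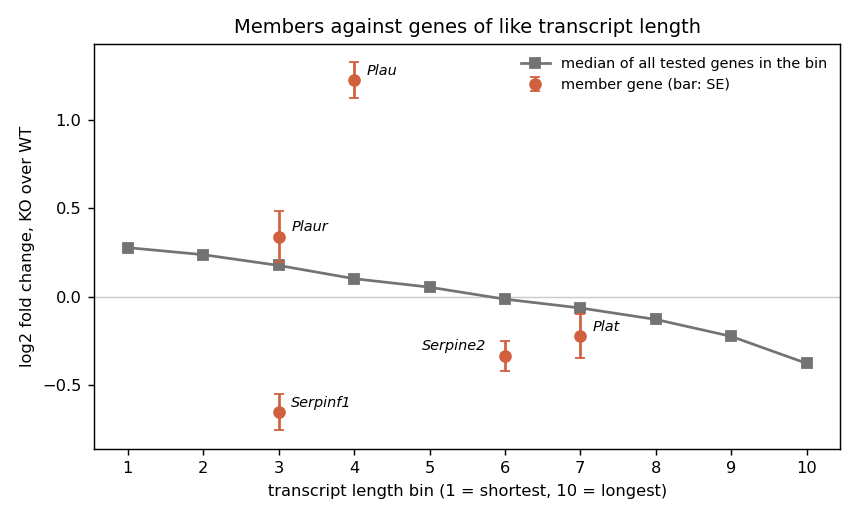
Log2 fold change, KO over WT (vertical axis), of the 5 tested members (orange, bars are SE) placed at the bin of their longest transcript (horizontal axis, 10 bins of all tested genes from shortest to longest), with the median of all genes in each bin in grey. The grey line falls from 0.28 to -0.38, Plau lies at 1.23 above its bin median of 0.10, Plaur and Plat lie near theirs, and Serpinf1 lies at -0.66 below its bin median of 0.18. By longest protein-coding transcript, Plat (2525 bases) and Serpine2 (2210) would fall in bin 4, with median 0.10, and Plaur (1506) in bin 2, with median 0.24. Plat, at -0.22, lies further below the median of bin 4 than below the one drawn.

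Promoter sequence was at hand from RefSeq (GRCm38.p6) for 4 of the 6 members; Plau and Plat had none. The 250 bases before the RefSeq start are printed 5′ to 3′ for Serpine2, the most abundant member, for Serpinb2, which was hardly detected, and for Plaur. Capitals mark matches, on either strand, to the GC box GGGCGG, the TATA box TATAAA and the AP-1 motif TGAGTCA; the TEAD motif CATTCC was also searched and matched none of the 4 genes. For Serpine2 and Serpinf1 the RefSeq start lies inside the GENCODE gene span given above, so the window is not upstream of the whole span.
Serpine2, chr1:79858666-79858915, minus strand: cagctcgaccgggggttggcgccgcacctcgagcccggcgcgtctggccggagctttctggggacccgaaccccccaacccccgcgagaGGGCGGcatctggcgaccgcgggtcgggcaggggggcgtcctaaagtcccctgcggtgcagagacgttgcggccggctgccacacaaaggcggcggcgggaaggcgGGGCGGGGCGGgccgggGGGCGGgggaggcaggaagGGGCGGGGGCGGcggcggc
Serpinb2, chr1:107511173-107511422, plus strand: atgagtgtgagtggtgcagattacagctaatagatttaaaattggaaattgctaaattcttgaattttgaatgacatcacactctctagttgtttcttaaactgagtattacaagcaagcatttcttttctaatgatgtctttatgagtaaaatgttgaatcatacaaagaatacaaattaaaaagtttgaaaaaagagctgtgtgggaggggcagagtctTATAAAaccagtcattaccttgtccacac
Plaur, chr7:24462233-24462482, plus strand: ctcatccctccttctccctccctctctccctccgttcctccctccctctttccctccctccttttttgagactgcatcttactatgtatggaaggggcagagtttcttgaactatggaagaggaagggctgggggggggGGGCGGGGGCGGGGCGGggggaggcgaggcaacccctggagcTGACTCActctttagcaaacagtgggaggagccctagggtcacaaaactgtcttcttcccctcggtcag
The Serpine2 window was 78.8% G and C and held 6 GC boxes, of which some overlap. The printed Serpinb2 window was 32.4% G and C and held a TATA box and no GC box. Serpinb2 had a further RefSeq start, whose window (chr1:107511260-107511509, not printed) was 38.4% G and C and also held a TATA box and no GC box. The Plaur window, at 59.6%, held 3 GC boxes and 1 AP-1 motif. Serpinf1 had no match in its window, at 51.6%. Of all 32851 promoter windows of that length, 32.7% held the GC box, 12.4% the TATA box, 4.5% the AP-1 motif and 12.6% the TEAD motif, and the median G and C content was 52.4%. A match is a description of letters and shows no binding.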

How the data were processed

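DESeq2 1.28.1, featureCounts 1.6.4, HISAT2 2.2.1, Cufflinks 2.2.1, fastp and SAMtools are listed per the submitters' processing notes, with build mm10 and no role or order. Per the labels' protocols, RNA was extracted with TRIzol and a stranded mRNA kit was used. For the annotation and the strand setting, the entry is: not given in the sources used here. The deposited values were counts: whole reads per gene symbol, not normalized. Of the members, only Serpinb2 overlaps an annotated gene (Serpinb10).

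The test across genes was edgeR 4.0.16 under R 4.3.3 (minimum count 10 in filterByExpr, TMM, robust glmQLFit, glmQLFTest, genotype as the only term), adjusted by Benjamini-Hochberg over 15798 genes. SEs came from the F statistic. Adjusted p-values rest on the spread between libraries only. The steps were tested on simulated data. Lengths came from GENCODE M21, which gave one for 15573 tested genes (98.6%). For the correction, a spline (4 degrees of freedom) of log2 CPM on transcript length and GC was fitted per library and used as an offset.

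The members and lists were chosen with earlier results of these data known. Named genes were the members, Fhl2, Plg, Plgrkt, up to 4 genes per role group and 4 serpins with the smallest p, up to 3 neighbours per member with the smallest p and the 5 genes with the pattern nearest to Plau. The values of 1 inhibitor gene that entered the counts are not reported here. Some neighbours that the rule covers are given by count only. Alternatives were DESeq2 1.42.0, limma 3.58.1 voom weights, other scalings, filters and corrections, a replicate block and each library left out. Where KO had 1 library, its spread was taken to equal that of WT. No 2 libraries were duplicates (chi-square per degree of freedom at least 10.4).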

Additional observations from a re-analysis of the deposited data

Results flagged for a closer look

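In 2 of 27 genes checked, 1 WT library stood apart from the other 3, by a gap to its nearest neighbour, as a share of the WT range, above Dixon's critical value; chance gives this in about 1 of 20 groups. F3 had 136.1 CPM in WT library 4 and 91.0 to 93.5 CPM in the others, a gap of 0.945 of the range, and its KO libraries stood at 143.5 to 152.9 CPM. Serpinb1a had 61.1 CPM in WT library 3 against 55.8 to 56.4 CPM in the others, a gap of 0.88 of the range.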

How the results depend on the processing

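Over all alternatives Plau stayed higher (log2 fold change 1.04 to 1.33, the lowest for KO library 1 alone), Serpine2 lower (-0.37 to -0.30) and Serpinf1 lower (-0.88 to -0.55). KO library 1 alone gave 0.055 for Plat and -0.84 for Serpinf1. The length and GC correction gave 0.16 for Plaur and -0.88 for Serpinf1, and the correction for length alone 0.18 and -0.84. The count of all genes past the threshold was 4588, 781 for KO library 1 alone, 2960 for the 6 libraries numbered 1 to 3 unblocked, and 1657 to 6740 with a library left out (1657 when KO library 3 was dropped, 2994 for WT library 3 and 2960 for WT library 4). For the plasminogen system list it was 17, 6 for KO library 1 alone, 10 for the length correction, and 11 to 25 with a library left out; for other serpins it was 5, 1 for KO library 1 alone, and 3 to 5 with a library left out. With the replicate block it was 3301 for all genes, 16 for the list and 4 for serpins. Same-numbered libraries had correlations of 0.0449, 0.00191 and -0.0496 between their deviations from the group means. Differently numbered ones had -0.0795 to 0.0896. These values show no pairing by number, but with so few libraries they cannot exclude it. Under the block Serpine2, Serpinb1a, Anxa2 and Pgk1 were not past the threshold. Serpinb1a and Anxa2 were not past it in the same libraries unblocked either, whereas Serpine2 was. Serpine2 was also not past it without WT library 1. Levels per kb over the exon union were 2.01 for Plaur, 3.90 for Plat, 144.8 for Serpine2 and 14.5 for Serpinf1, and over the longest coding transcript, chosen after seeing the data, 3.48, 9.64 and 543.0 for the first 3. Within 250 kb of the members 13 genes passed and within 1000 kb 32, beside 21 within 500 kb. For KO library 1 alone, calls were lost with folds of -1.24 for Ap1s3, 0.48 for F3, 0.88 for Serpina5, 0.32 for Plgrkt and -0.30 for Serpine2. Calls were lost with smaller folds for Serpinb6a (0.26), Vldlr (-0.31), Igf2r (-0.30), Mmp14 (-0.22), Serpinb1a (0.17), Pgk1 (0.12), S100a10 (0.10) and Anxa2 (0.083). All are on the log2 scale, and the cause was not tested. At 0 to 6 counts, Serpinb2, Plg and the fibrinogen genes allow no comparison.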
